A study of Homo sapiens with 6 samples.

Results

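RET is a receptor tyrosine kinase, and it is described here with its coreceptors GFRA1, GFRA2 and GFRA3 and its ligands GDNF, NRTN and ARTN. The members were chosen by gene symbol: every probe set with a single symbol in the platform annotation, equal to one of these 7 names, was taken. This gave 11 probe sets of the 22283 on the array, for 6 of the 7 genes, among 11963 genes named in all. RET and ARTN had 3 probe sets each, GFRA2 had 2, and GFRA1, GFRA3 and NRTN had 1 each. GDNF had no probe set under its symbol in that annotation, so its expression was not analysed here.

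The groups were LCCTam, a tamoxifen-resistant variant of the SUM44 line, with 3 arrays at passages 8, 9 and 10, and SUM44 itself, a human line from an invasive lobular breast carcinoma, given as ER+/PR+ (estrogen and progesterone receptor positive), on 3 arrays at passages 74, 75 and 76. Both were grown in SFIH (Ham's F12) medium until sub-confluent, LCCTam with 500 nM 4-hydroxytamoxifen, the active metabolite of tamoxifen, and SUM44 without it. The lines therefore differ in resistance, in drug, in passage and possibly in array batch, and these cannot be told apart. Replicates 1 to 3 are the passages in ascending order. LCCTam is 1 derived line, and the labels do not say whether the passages of a line were separate cultures, so the p-values reflect only how far these samples vary, which may be technical.

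RET signals when a dimeric ligand of the GDNF family binds a coreceptor of the GFR alpha family, which is anchored in the membrane by a lipid and has no kinase of its own. The pair then brings RET molecules together, and they phosphorylate each other on tyrosines that recruit adaptor proteins and start the RAS-MAPK, PI3K-AKT and PLC gamma pathways. GDNF binds mainly GFRA1, neurturin (NRTN) mainly GFRA2 and artemin (ARTN) mainly GFRA3. The system is best known from the developing kidney and the enteric nervous system, and in breast cancer RET is found mostly in estrogen receptor positive tumours, where estrogen can induce it.

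The RefSeq windows from 250 bases before to 50 bases after the annotated start (GRCh38.p14) are shown for RET, GFRA1 and ARTN, because these were the genes with probe sets that passed the test below. RET lies on the plus strand at chr10:43076819-43077118, GFRA1 on the minus strand at chr10:116274656-116274955 and ARTN on the plus strand at chr1:43933551-43933850. Capitals mark matches to a GC box (GGGCGG) or an AP-2 element (GCCNNNGGC) on either strand, and overlapping matches were each counted. Where a gene had several annotated starts, the outermost one is shown, and the counts of the others follow.
RET: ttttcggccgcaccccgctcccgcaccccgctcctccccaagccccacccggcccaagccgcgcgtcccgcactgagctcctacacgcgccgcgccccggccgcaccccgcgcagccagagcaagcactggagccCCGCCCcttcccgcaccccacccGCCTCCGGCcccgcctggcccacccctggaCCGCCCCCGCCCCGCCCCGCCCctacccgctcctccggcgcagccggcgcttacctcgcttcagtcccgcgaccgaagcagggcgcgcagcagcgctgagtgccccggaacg
GFRA1: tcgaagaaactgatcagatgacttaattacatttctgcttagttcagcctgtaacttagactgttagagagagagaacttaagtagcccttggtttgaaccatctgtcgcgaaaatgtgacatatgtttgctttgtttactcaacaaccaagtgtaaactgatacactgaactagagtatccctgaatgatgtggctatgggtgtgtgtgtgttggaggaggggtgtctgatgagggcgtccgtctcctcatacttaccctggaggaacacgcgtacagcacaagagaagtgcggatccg
ARTN: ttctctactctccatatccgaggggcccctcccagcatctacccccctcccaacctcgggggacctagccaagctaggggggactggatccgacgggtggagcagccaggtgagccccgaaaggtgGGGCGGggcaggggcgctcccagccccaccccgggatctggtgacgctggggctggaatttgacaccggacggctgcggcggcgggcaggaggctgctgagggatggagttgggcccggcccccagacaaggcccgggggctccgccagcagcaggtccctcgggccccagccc
The RET window was 78.7% G and C, with 5 GC boxes and 1 AP-2 match. The ARTN window, at 71.7%, held 1 GC box and no AP-2 match, and the GFRA1 window shown, at 45.0%, held neither. These counts depend on the start taken. The other RET window (58.7%) held 1 GC box and no AP-2 match. Of the 3 other GFRA1 windows, that at 67.7% held 1 match to each motif, that at 64.3% held 1 AP-2 match and that at 45.7% held neither. Of 35116 RefSeq windows of the same length, 45.0% held a GC box and 23.2% an AP-2 match. The estrogen response element GGTCANNNTGACC was in 0.057% of all windows, the estrogen-related receptor element TCAAGGTCA in 0.353% and the AP-1 element TGANTCA in 7.71%. Matches to these 3 motifs numbered 0 in every RefSeq window of the 6 members that had one, which were RET, GFRA1, GFRA3, GDNF, NRTN and ARTN. These letters are a description of the windows and not of binding.

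Expression is given as log2 values made by RMA (robust multi-array average), so a difference of 1 is a 2-fold change. Differences are LCCTam minus SUM44, fitted with limma over all 19065 named probe sets, and a probe set passed at a Benjamini-Hochberg adjusted p under 0.05. Levels are compared only between arrays within a probe set, because probe sets differ in how brightly they bind. The deposited values hold no detection calls, so a dim value does not tell whether the gene was expressed. The number of arrays limits the precision.

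The arrays were alike in their medians, at 5.92 to 5.94 in LCCTam and 5.94 to 5.97 in SUM44 over all non-control probe sets. LCCTam replicate 3 stood apart. The 3' control of actin exceeded the 5' control by 1.92 there and by 0.90 to 1.15 elsewhere, and its upper quartile was 7.50, against 7.67 to 7.77 on the others. Of 11 measured luminal epithelial markers 0 were higher and 1, ESR1, was lower in LCCTam, with 5 at an unadjusted p under 0.05. Over all genes 2.03% passed as higher and 5.73% as lower, and the share at an unadjusted p under 0.05 was not counted. The luminal list ran lower, with a median difference of -0.30. Its summed log2 levels were 114.9 to 118.3 in LCCTam and 120.5 to 122.9 in SUM44. MUC1 (-1.38, 1 of 3 probe sets lower), CLDN3 (-0.80) and CLDN4 (-0.70) had the largest differences after ESR1 and did not pass by their brightest probe sets. The part of this shift in the RET result was not tested. Keratins KRT8, KRT18 and KRT19 were at means of 12.16, 13.18 and 12.29 in LCCTam and 12.50, 13.40 and 12.39 in SUM44, and the E-cadherin gene CDH1, whose loss marks lobular carcinoma, was at 7.63 in LCCTam and 7.76 in SUM44 (difference -0.13, or 0.08 without LCCTam replicate 3).

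RET rose in LCCTam, with all 3 of its probe sets passing, while GFRA1 fell and 1 of the 3 ARTN probe sets rose. Of the 11 probe sets 4 were higher and 1 lower, where 1.72% of all 19065 probe sets passed as higher and 5.65% as lower (7.37% in all). The 3 probe sets that remained when any array except LCCTam replicate 3 was left out were those of RET, and without LCCTam replicate 3 the count was again 5. For 9 of the 11 probe sets no LCCTam value fell within the SUM44 range or the reverse, 8 of them higher and 1 lower in LCCTam. Over all probe sets this held for 29.6%, with 13.0% higher and 16.6% lower.

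**Figure D1:**
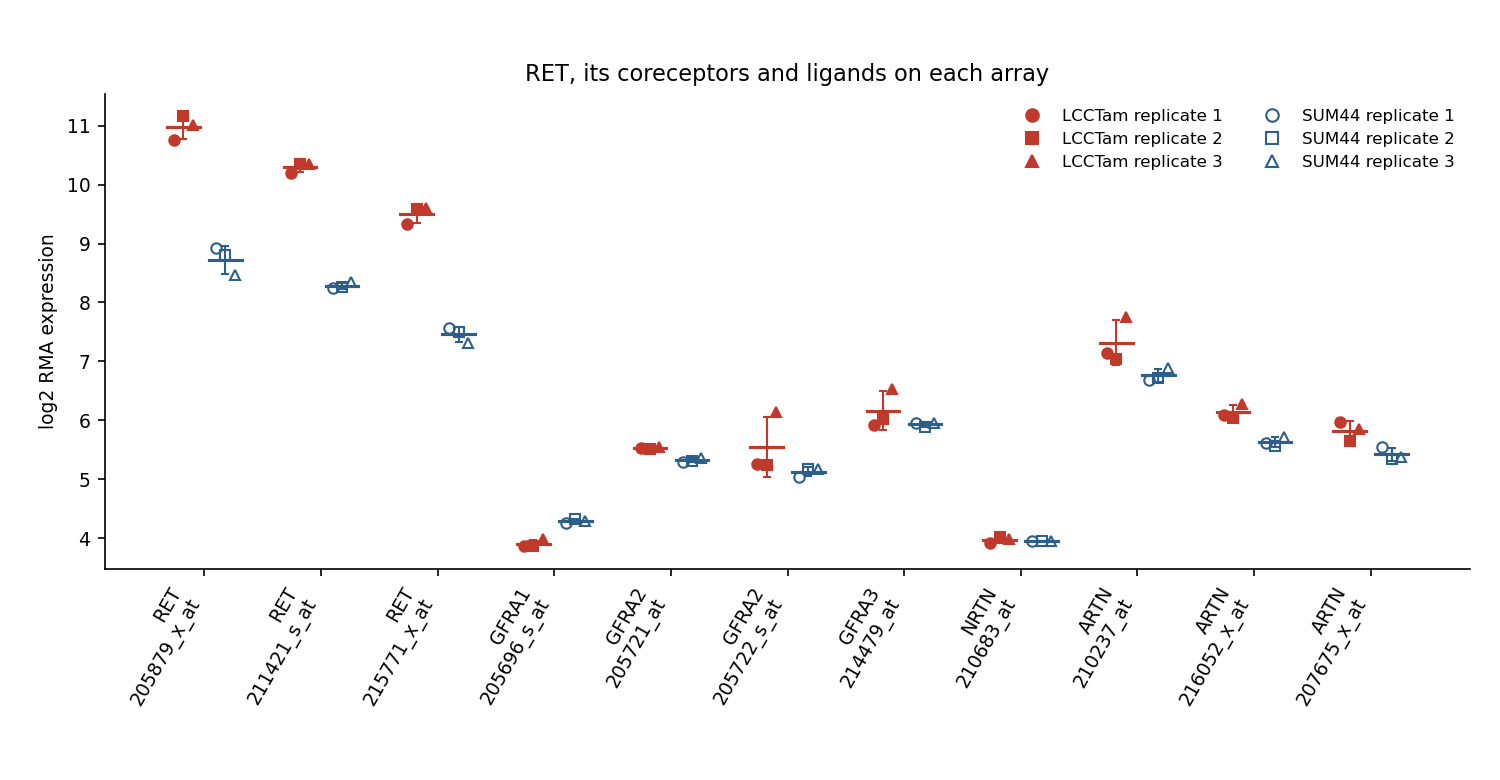
Log2 RMA expression of the 11 probe sets on each array, with LCCTam (filled, left) beside SUM44 (open, right); horizontal lines are means, vertical bars are the SD of 3 arrays and marker shapes are replicates. The 3 RET probe sets have a gap of 1.76 to 1.86 between the lowest LCCTam and the highest SUM44 array, and LCCTam replicate 3 stands highest for 5 of the 8 other probe sets.

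The brightest RET probe set, 205879_x_at, was at 10.76, 11.16 and 11.01 in LCCTam, against 8.92, 8.80 and 8.46 in SUM44. Every LCCTam array lay above every SUM44 array. The means were 10.98 ± 0.20 in LCCTam and 8.73 ± 0.24 in SUM44 (SD, n = 3 each), a difference of 2.25 (95% interval 1.88 to 2.62, limma adjusted p = 0.000882) or 4.76-fold. In these bulk samples a change in the share of cells with RET and a change of RET per cell cannot be told apart.

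RET probe set 211421_s_at was at 10.20, 10.36 and 10.36 in LCCTam, against 8.24, 8.26 and 8.34 in SUM44. Its SD was 0.092 in LCCTam and 0.051 in SUM44, and it was at position 4 of all 19065 probe sets by unadjusted p, one of 6 that share the lowest adjusted p (difference 2.02, 4.06-fold, limma adjusted p = 0.00021). The third, 215771_x_at, was at 9.33, 9.60 and 9.60 in LCCTam, against 7.57, 7.50 and 7.31 in SUM44, a difference of 2.05 (4.15-fold, limma adjusted p = 0.000404).

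The 95% intervals of the 3 RET probe sets overlapped and together ran from 1.78 to 2.62. They differed within SUM44, where replicate 3 was the lowest array of 205879_x_at and 215771_x_at but the highest of 211421_s_at. After each was centred on its own mean, the root mean square difference between 2 of them over the 6 arrays was 0.12 to 0.22 on the log2 scale. All 3 carry the suffix _x_at or _s_at, which marks probes that can also match other transcripts, and their probes may be shared, so they are not independent readings. When probe sets with these suffixes were removed, RET had no value. Over the other alternatives the RET differences were 1.90 to 2.36, and all passed. Without LCCTam replicate 3 the difference of 205879_x_at was 2.23.

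**Figure D2:**
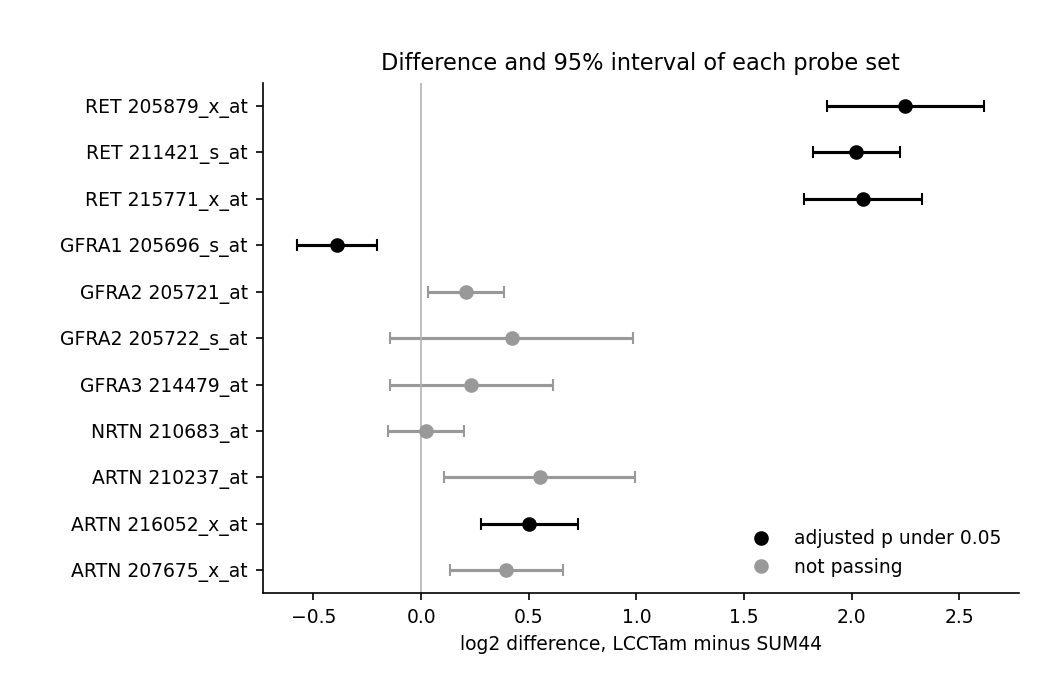
Log2 difference, LCCTam minus SUM44, of each probe set with its 95% interval from limma; black marks an adjusted p under 0.05 and grey the rest. The 3 RET probe sets lie between 2.02 and 2.25, GFRA1 at -0.39 and the 3 ARTN probe sets between 0.40 and 0.55.

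GFRA1, the main coreceptor of GDNF, went the other way from RET. Its single probe set 205696_s_at was at 3.87, 3.86 and 3.98 in LCCTam, against 4.26, 4.32 and 4.30 in SUM44. The lines did not overlap. It fell by 0.39 (1.31-fold, limma adjusted p = 0.0307), and both lines were dim. The call depended on single arrays: GFRA1 passed in 1 of the 6 fits that left out an array, the one without LCCTam replicate 3 (difference -0.43, adjusted p = 0.0178). Without SUM44 replicate 2 the adjusted p was 0.138.

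GFRA2, the main coreceptor of neurturin, did not pass. Probe set 205721_at was at 5.52, 5.52 and 5.55 in LCCTam, against 5.29, 5.31 and 5.37 in SUM44. These groups did not overlap, with a difference of 0.21 (limma adjusted p = 0.152).

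The other GFRA2 probe set, 205722_s_at, was at 5.26, 5.24 and 6.14 in LCCTam, against 5.04, 5.17 and 5.17 in SUM44. Replicate 3 set its mean: the difference was 0.42 with that array (limma adjusted p = 0.35) and 0.12 without it. GFRA3, the coreceptor of artemin, was at 5.93, 6.03 and 6.54 in LCCTam, against 5.95, 5.89 and 5.96 in SUM44. The groups overlapped, and the difference was 0.23 (limma adjusted p = 0.438), or 0.05 without LCCTam replicate 3.

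Among the ligands, ARTN probe sets were all higher in mean in LCCTam, and 1 of 3 passed. Probe set 216052_x_at was at 6.10, 6.04 and 6.27 in LCCTam, against 5.62, 5.56 and 5.72 in SUM44, with no overlap. It rose by 0.50 (1.42-fold, limma adjusted p = 0.0256), and without LCCTam replicate 3 by 0.44 (adjusted p = 0.0251). In the fits that left out another array the adjusted p was 0.0514 to 0.125, the highest without SUM44 replicate 2.

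The brightest ARTN probe set, 210237_at, which has no cross-matching suffix, was at 7.14, 7.05 and 7.75 in LCCTam, against 6.68, 6.72 and 6.88 in SUM44. LCCTam replicate 3 was the highest, and the difference of 0.55 (limma adjusted p = 0.137) was 0.33 without it (adjusted p = 0.0712). The last, 207675_x_at, was at 5.97, 5.65 and 5.85 in LCCTam, against 5.55, 5.35 and 5.37 in SUM44, where the lines did not overlap (difference 0.40, limma adjusted p = 0.0835). With the 3 ARTN probe sets averaged before the fit, the difference was 0.48 (adjusted p = 0.0436).

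NRTN was level across the arrays, at 3.92, 4.01 and 3.99 in LCCTam and 3.95, 3.94 and 3.95 in SUM44. The groups overlapped. Its difference was 0.02 (95% interval -0.16 to 0.20, limma adjusted p = 0.898), at dim values where a change can be compressed.

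The array that stood apart set the size of some coreceptor and ligand differences and not of others. The differences of GFRA2 205722_s_at, GFRA3 and ARTN 210237_at were over 1.5 times smaller without it, as given above. Those of GFRA1, GFRA2 205721_at and the other ARTN probe sets were not. The NRTN difference was small either way, at 0.02 with that array and 0.01 without it. LCCTam replicate 3 was the highest of the 6 arrays for 5 of their 8 probe sets, against 22.5% of all probe sets. Relative to the SUM44 mean, the median of these 8 was 0.16, 0.16 and 0.52 in LCCTam replicates 1, 2 and 3. For 30 genes normally confined to other tissues, such as the eye, testis, heart and pituitary, the same medians were 0.06, 0.05 and 0.16, and 0 of the 30 passed in limma (2 at an unadjusted p under 0.05). The part of this array in the ARTN and GFRA values was not tested beyond leaving it out.

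**Figure D3:**
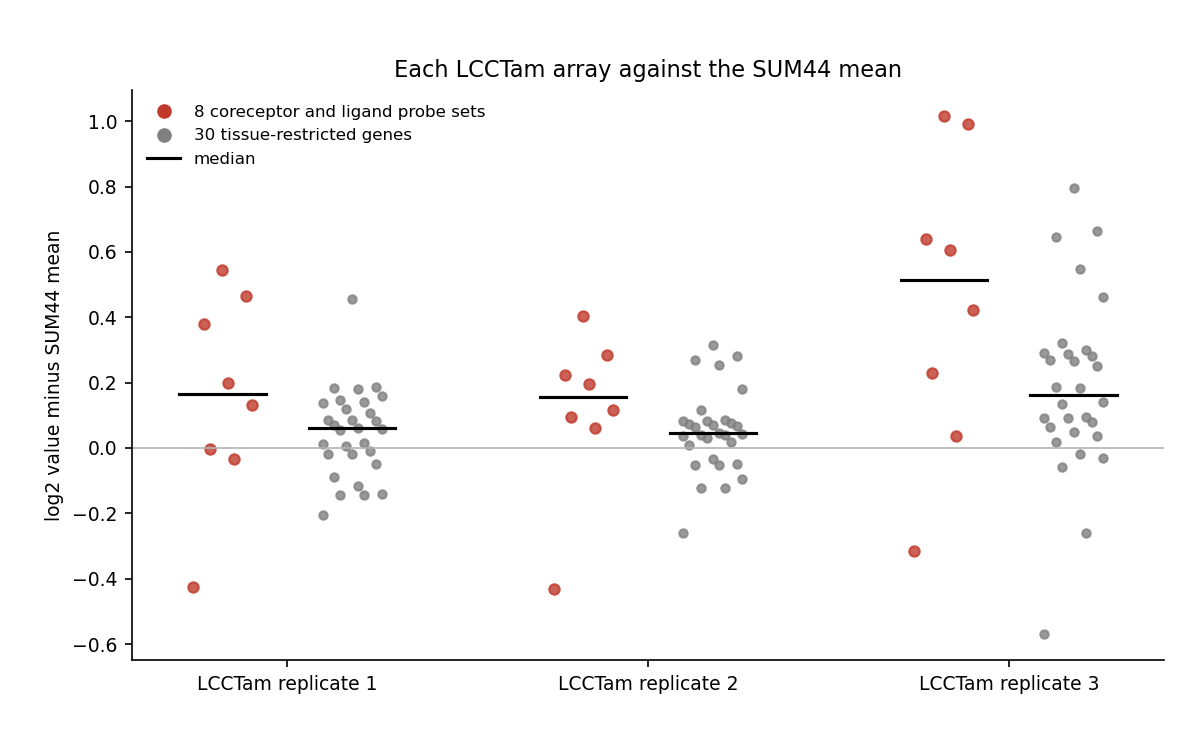
Each LCCTam array's log2 value minus the SUM44 mean for the 8 coreceptor and ligand probe sets (red) and for 30 tissue-restricted genes (grey), with medians as black lines. Replicate 3 has the highest median in both sets, 0.52 and 0.16.

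RET had the largest difference of the 6 measured genes. With the brightest probe set of each gene, the difference of RET exceeded that of GFRA1, NRTN, GFRA2, GFRA3 and ARTN by 2.64, 2.23, 2.04, 2.02 and 1.70. For each of the 5, the RET value minus that of the other member did not overlap between LCCTam and SUM44 arrays. The exact two-sided permutation test gave p = 0.1 before and after adjustment over the 5, the smallest that 3 against 3 can reach, so no call could be made. All 5 contrasts contain the rise of RET and are not separate evidence of it, and GFRA1 and NRTN are dim.

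Receptor tyrosine kinases as a class did not move with RET. Of 51 measured, RET included and each by its brightest probe set, 2 were higher, 1 was lower and 48 did not pass. Their median difference was 0.07, beside 0.02 over all 11963 genes, of which 2.03% passed as higher and 5.73% as lower (7.76% in all). Without LCCTam replicate 3 the counts were again 2 and 1. RET had the largest difference of the 51. FGFR4, a fibroblast growth factor receptor, was next, at 10.64, 10.33 and 10.10 in LCCTam, against 8.37, 8.40 and 8.28 in SUM44 (difference 2.01, limma adjusted p = 0.00093). IGF1R, which binds insulin-like growth factors, was lower, at 6.70, 6.73 and 6.17 in LCCTam, against 7.82, 7.90 and 7.82 in SUM44 (difference -1.32, limma adjusted p = 0.00523). The other IGF1R probe sets were not alike, since 2 of its 3 passed and they ranged from -2.13 to 0.06.

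The alternative coreceptors and ligands of the family did not pass. Of 7 measured, 0 passed in limma and likewise 0 at an unadjusted p under 0.05 (median difference 0.17), and with array weights 2 passed. GFRA4, the coreceptor of persephin, was at 6.36, 6.28 and 6.43 in LCCTam, against 6.13, 6.16 and 6.27 in SUM44. Persephin itself (PSPN) was at 5.53, 5.48 and 5.85 in LCCTam, against 5.43, 5.45 and 5.43 in SUM44. Neither pair of groups overlapped, at differences of 0.17 and 0.19, or 0.14 and 0.07 without LCCTam replicate 3. NCAM1, an adhesion molecule that can act as a GDNF receptor without RET, had the largest difference of the list, 0.37 (limma adjusted p = 0.264), or 0.18 without LCCTam replicate 3.

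Of the adaptors and enzymes that RET recruits or activates, 31 were measured, and 1 rose and 3 fell (median 0.08). Over all 11963 genes 2.03% passed as higher and 5.73% as lower (7.76% in all). PIK3R1, the regulatory subunit of PI3 kinase, was at 8.22, 8.66 and 8.83 in LCCTam, against 9.72, 9.94 and 9.65 in SUM44 (difference -1.20, limma adjusted p = 0.00939), and all 3 of its probe sets passed as lower. PTPN11, which encodes the phosphatase SHP2 that carries the signal to RAS, differed by -0.89, with 3 of its 5 probe sets passing. SOS2, a RAS activator, differed by -0.58, with 2 of 5 passing and the others up to 0.02. GRB2, the adaptor that brings SOS to the receptor, rose by 0.49 (limma adjusted p = 0.0481). When 1 array at a time was left out, PIK3R1 passed in 5 of 6 fits, while PTPN11, SOS2 and GRB2 passed in 1 of 6, the fit without LCCTam replicate 3 (adjusted p for GRB2 0.0262 there and 0.0773 to 0.169 otherwise). With an intensity trend in the variance prior GRB2 was at an adjusted p of 0.0715. The adaptor genes SHC1, GAB1 and DOK4 were at differences of 0.15, -0.27 and 0.09 (0.33, -0.20 and -0.08 without LCCTam replicate 3) and did not pass. The list's count of 4 was 0 without SUM44 replicate 2 and 1 without SUM44 replicate 1 or 3 or LCCTam replicate 1 or 2, and it was 6 without LCCTam replicate 3.

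Genes of RET trafficking and genes that limit RET or its signal, read as 1 list, went both ways. Of 12 measured, 3 rose and 1 fell (median 0.05), where 2.03% of all genes passed as higher and 5.73% as lower. SPRY4, a Sprouty inhibitor of the RAS-MAPK pathway, was at 9.88, 9.79 and 9.47 in LCCTam, against 8.20, 7.92 and 8.16 in SUM44 (difference 1.62, limma adjusted p = 0.00171). DUSP6, the phosphatase that inactivates ERK, was at 9.61, 9.92 and 9.63 in LCCTam, against 8.68, 8.83 and 8.95 in SUM44 (difference 0.90, limma adjusted p = 0.00754). For DUSP6 2 of 3 probe sets passed. Both genes passed in all 6 fits that left out an array.

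SPRY1, the Sprouty gene that restrains Ret in the mouse kidney, was at 6.73, 6.57 and 6.21 in LCCTam, against 7.78, 7.43 and 7.21 in SUM44. It fell by 0.97 (limma adjusted p = 0.0267), opposite to SPRY4. SNX3, a sorting nexin of the endosome, rose by 0.34 (limma adjusted p = 0.0416), with 1 of its 4 probe sets passing. SPRY1 passed in 2 and SNX3 in 1 of the 6 fits that left out an array. The ubiquitin ligase genes CBL, CBLB and CBLC, which act in RET breakdown, were at 0.08, -0.0049 and 0.35 and did not pass. This list's count of 4 was 2 without SUM44 replicate 1 or 2 or LCCTam replicate 1 or 2, and 4 without LCCTam replicate 3.

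**Figure D4:**
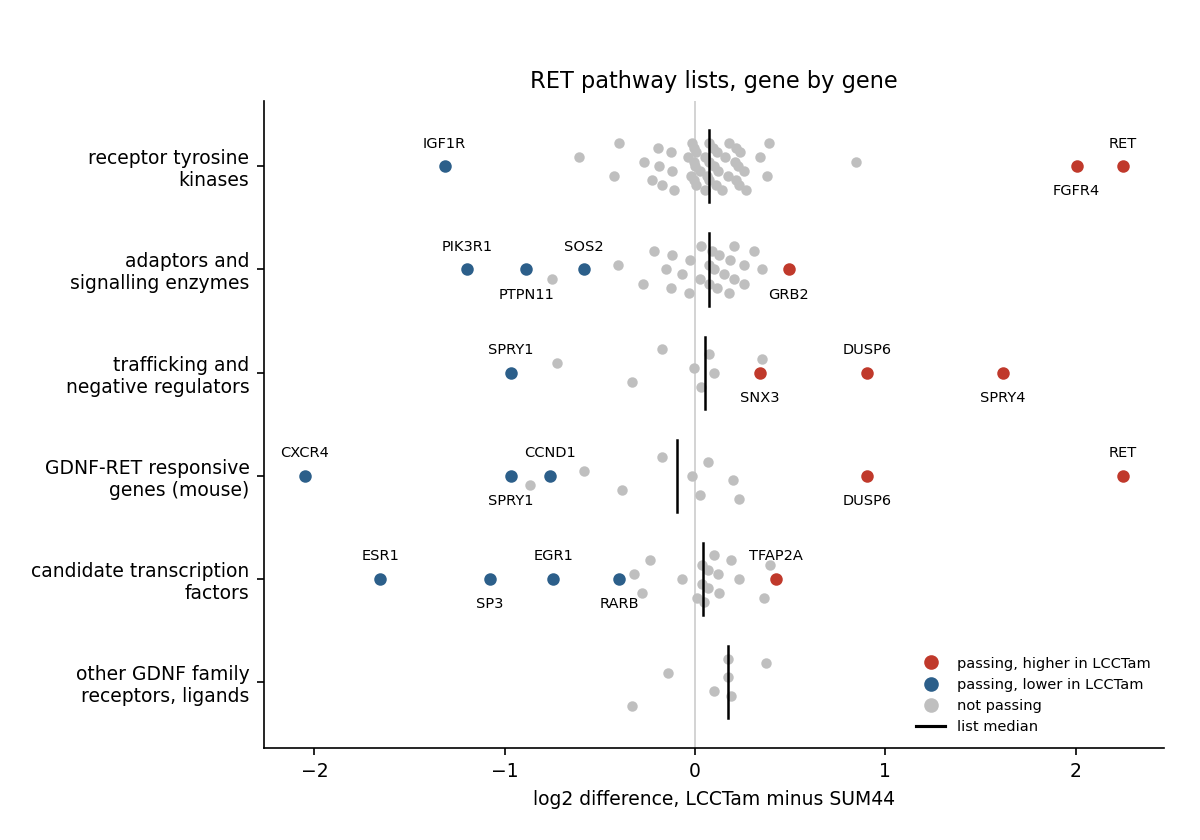
Log2 difference, LCCTam minus SUM44, of every measured gene in 6 lists, each by its brightest probe set; red and blue are genes that passed as higher and lower, grey did not pass and black lines are list medians. RET and FGFR4 stand alone at the high end of the receptor tyrosine kinases, and the list medians lie between -0.10 and 0.17.

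Genes that GDNF and Ret induce in the mouse ureteric bud, the epithelium that forms the kidney's collecting ducts, went both ways. Of 14 measured, RET itself included, RET and DUSP6 rose and 3 fell (median -0.10). The shares over all genes were 2.03% higher and 5.73% lower. RET is the gene described here, so its own rise says nothing on a response to it. DUSP6 was the only other gene of the list that passed as higher. CXCR4, a chemokine receptor, was at 6.74, 6.88 and 6.34 in LCCTam, against 8.45, 8.74 and 8.92 in SUM44 (difference -2.05, limma adjusted p = 0.00179), and all 3 of its probe sets passed as lower. SPRY1 is given above, and CCND1, the cyclin D1 gene, differed by -0.76 (limma adjusted p = 0.0138) and passed in 4 of the 6 fits that left out an array. The transcription factor genes ETV4 and ETV5, which carry much of the Ret response in that tissue, were at 0.23 and 0.07 (limma adjusted p = 0.194 and 0.75). The list's count of 5 was 3 without SUM44 replicate 2 or LCCTam replicate 1, and 6 without LCCTam replicate 3.

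Among 22 measured transcription factors that are candidates for control of RET or its family, 1 rose and 4 fell (median 0.04). Over all genes 2.03% passed as higher and 5.73% as lower. ESR1, the estrogen receptor alpha gene, was at 11.14, 10.94 and 11.17 in LCCTam, against 12.49, 12.79 and 12.93 in SUM44 (difference -1.65, limma adjusted p = 0.00155), so it was lower in the same arrays in which RET was higher. Of its 9 probe sets 5 passed, all lower, with differences from -1.65 to -0.04 over the 9, and with the 9 averaged it was at -0.82 (adjusted p = 0.00431). SP3, which binds GC boxes, was at 7.27, 7.28 and 7.47 in LCCTam, against 8.42, 8.40 and 8.43 in SUM44 (difference -1.08). SP1, also in the list, did not pass (difference -0.07, limma adjusted p = 0.826), at dim means of 4.81 in LCCTam and 4.88 in SUM44. EGR1, an immediate-early factor, differed by -0.74, with 1 of its 2 probe sets passing. RARB, a retinoic acid receptor, differed by -0.40, with 1 of 5 passing and the others up to 0.12. The RARB call (limma adjusted p = 0.0495) was lost in all 6 fits that left out an array (0.0599 to 0.155), and with its probe sets averaged RARB was at -0.06 (0.734). EGR1 passed in 3 of those 6 fits, and SP3 and ESR1 in all 6.

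TFAP2A, one of the AP-2 factors, was at 11.39, 11.42 and 11.44 in LCCTam, against 11.02, 11.04 and 10.91 in SUM44, and rose by 0.43 (limma adjusted p = 0.023), with 1 of its 3 probe sets passing, in 1 of the 6 fits that left out an array. Its relative TFAP2C was at -0.28, and the pioneer factor genes FOXA1 and GATA3 at 0.07 and -0.23, and these did not pass. This list's count of 5 was 2 without any one SUM44 array and 3 without LCCTam replicate 1 or 2, and it was 4 without LCCTam replicate 3.

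RET is also a gene of neural crest derivatives, and most neural markers did not pass. Of 11 measured neuroendocrine and neural markers 1 was higher and 0 lower (median 0.09). Over all genes 2.03% passed as higher and 5.73% as lower. Of these markers 3 were at an unadjusted limma p under 0.05. Their summed log2 levels were 55.9 to 56.9 in LCCTam and 55.3 to 56.7 in SUM44. ENO2 had the largest difference of the list, at -0.76, and did not pass. The passing gene was TH, tyrosine hydroxylase, at 5.03, 4.94 and 5.11 in LCCTam, against 4.66, 4.51 and 4.47 in SUM44, and it passed in 2 of the 6 fits that left out an array. Fibroblast markers summed to 50.1 to 51.1 in LCCTam and 54.7 to 55.0 in SUM44, with 1 of 10, COL3A1, lower (difference -4.42). The median difference of these 10 was -0.0093, so the sums do not show a fall of the list as a whole. Leukocyte and endothelial markers summed to 37.8 to 39.0 in LCCTam and 37.5 to 38.5 in SUM44, with 0 of 8 passing in limma and 0 at an unadjusted p under 0.05.

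The genes whose profile was most like that of RET were found by the smallest root mean square difference over the 6 arrays, after each gene's brightest probe set was centred on its mean. They were NDST4, an enzyme of heparan sulfate synthesis (0.22), the SRC family kinase gene FGR (0.22), the transcription factor gene GATA4 (0.22), the orphan nuclear receptor gene ESRRG (0.26) and CTSD, the cathepsin D gene (0.28). This measure largely picks genes whose difference between the lines is near that of RET. Their differences ran from 1.90 (CTSD) to 2.35 (NDST4), beside 2.25 for RET. Shared variation within a line was not tested. NDST4 was at 7.66, 7.50 and 7.66 in LCCTam, against 5.47, 5.08 and 5.21 in SUM44. ESRRG was at 8.60, 9.19 and 9.55 in LCCTam, against 7.10, 6.94 and 7.01 in SUM44. RET ranked at position 12 among all 11963 genes by the size of its increase.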

How the data were processed

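The deposited values are log2 expression values of 22283 probe sets that the authors made with RMA, per the submitters' processing notes, as implemented in Bioconductor, per the series' design text. Not given in the sources used here were its version, the chip definition and whether arrays were processed together. Symbols came from the platform annotation and were updated through Entrez identifiers with RefSeq (GRCh38.p14). The 19065 non-control probe sets with 1 symbol entered 1 model in R 4.3.3 with limma 3.58.1 (line as the only term, moderated by eBayes, prior degrees of freedom 3.01, no intensity filter), with Benjamini-Hochberg adjustment over all of them. For lists, the probe set with the highest mean stood for its gene. Lists are described by counts and medians. The members and lists were chosen with earlier results of these data known. Named list genes were up to 5 passing genes with the largest differences, or the largest difference where none passed. Any other gene was picked with its values in view. The model was also run on simulated data with independent noise and no outlying array. That run does not bear on the effect of LCCTam replicate 3. Alternatives changed the arrays, normalization, weights, variance prior, probe sets, thresholds and averaging.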

Additional observations from a re-analysis of the deposited data

How the results depend on the processing

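RET kept its direction and passed in every alternative that gave it a value, with adjusted p of 4.56e-06 to 0.0103 over its 3 probe sets. Without the _x_at and _s_at probe sets RET, GFRA1 and the within-array RET contrasts had no value, and 0 of the 4 remaining members' probe sets passed. In that setting 687 of the 10100 probe sets kept passed, and 2 of 8 trafficking and limiting genes. Leaving out 1 array at a time gave 3 to 5 passing members and 382 to 2238 of all probe sets. The 382 were without SUM44 replicate 2 and the 2238 without LCCTam replicate 3. It also gave 0 to 6 adaptors, 2 to 4 trafficking and limiting genes, 2 to 4 transcription factors and 3 to 6 responsive genes. Requiring a 2-fold change as well left 3 members, 359 of all probe sets, 1 adaptor and 1 trafficking or limiting gene. It also left 2 transcription factors and 2 responsive genes, RET itself and CXCR4, which was lower. The submitters' selection rule, applied here to the same limma fit, gave 3, 425, 1, 1, 2 and 2. It took an unadjusted p under 0.05, a 2-fold change and both group means at 10 or more before log2. These are counts of this fit and not the submitters' own. Array weights gave 8 members, 6207 of all probe sets, 2 other family genes, 14 adaptors and 8 trafficking and limiting genes. They also gave 10 transcription factors, 9 responsive genes and 11 receptor tyrosine kinases. The weights were 0.198 for LCCTam replicate 3 and 5.40 for LCCTam replicate 1. NRTN reversed under array weights, to -0.019 (adjusted p = 0.821). With dim probe sets (under 6 in both lines) removed, GFRA1, GFRA2, NRTN and 1 ARTN probe set had no value. Of the 14 transcription factors kept there, 3 passed. With the probe sets of a gene averaged, 3 of 6 member genes passed, RET and ARTN higher and GFRA1 lower. With quantile normalization 664 probe sets passed as higher and 916 as lower, against 327 and 1078 without it, with array weights 2977 and 3230, and without LCCTam replicate 3, 877 and 1361. The causes of these shifts were not tested. No paired analysis was possible because the lines share no passage. Unknown background limits what the dim values of GFRA1 and NRTN can show.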
